A study of Mus musculus with 12 samples.

Results

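*Hif1a*, which encodes the oxygen-regulated α subunit of hypoxia-inducible factor (HIF), and 7 target genes of HIF outside glycolysis were followed in mouse embryonic fibroblasts (MEFs). The 7 targets are *Egln3*, *Vegfa*, *Adm*, *Ndrg1*, *P4ha1*, *P4ha2* and *Pdk4*. They were taken by name from the array annotation, and each gene was read by its brightest probe over the 12 arrays. All 8 genes have a probe, and all 8 are among the 6093 genes, of 16593 with a probe, that were read at 100 or more on any array and were tested. Of the 8, 6 reached 100 on all 12 arrays. *P4ha1* reached 100 on 6 arrays, none of them wild-type, and *Pdk4* on 1 array.

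The cells were wild-type, *Sirt6-/-*, or *Sirt6-/-RelA-/-*, a double knockout that lacks both the chromatin deacetylase SIRT6 and the NF-κB subunit RelA. Each genotype was read untreated (0 h) and 1.5, 6 and 24 h after addition of TNF-α (20 ng/mL). Every one of these 12 conditions was hybridized to 1 Illumina mouse bead array. The MEFs came from littermate embryos of 13.5 days and had been passaged 4 times. The study compared the genotypes to learn how loss of SIRT6, and of RelA on top of it, alters expression before and during TNF-α. No condition was repeated, and the 4 arrays of a genotype are 4 times, and it is not stated whether those 4 came from 1 culture. Effects of a genotype and of the cells that carried it cannot be told apart.

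The labels were checked on the deleted genes. *Sirt6* gave 37.6 to 44.2 in wild-type cells and was under 16 on every knockout array, and *Rela* gave 172 to 187 in double-knockout cells against 674 to 1446 in the others. *Xist*, transcribed from the inactive X, gave 71.3 to 121 in wild-type and *Sirt6-/-* cells and at most 11.2 in double-knockout cells, and the Y-linked *Eif2s3y* gave 768 to 910 in double-knockout cells and at most 2.56 in the others, so comparisons of double-knockout cells are also comparisons across these transcripts. All 10 fibroblast markers on the array reached 100, and their summed intensity ran from 20286 to 26185 in *Sirt6-/-* cells, from 25580 to 30921 in double-knockout cells and from 27720 to 33720 in wild-type cells. Against wild-type, 5 of the 10 were lower in *Sirt6-/-* cells and 1 was higher, beside 17.1% and 25.1% of all tested genes. Among the 8 that reached 100 in both of these genotypes, a count added after seeing the data, 3 were lower and 1 higher. The receptor gene *Pdgfra* read 17.1 to 35.2 in *Sirt6-/-* cells against 135 to 162 for wild-type, *Lum* read 19.0 to 30.5 against 79.6 to 171, and the collagen gene *Col1a2* differed by -1.32 (adjusted p = 4.12e-06). *Pdgfra* and *Lum* reached 100 in wild-type cells only, so they entered the test through the genotype where they were high. Of 15 skeletal muscle markers 7 reached 100, and all 7 were called above wild-type in *Sirt6-/-* cells, 5 of them having reached 100 in that genotype alone. *Myl1*, a myosin light chain gene, read 1105 to 1256 in *Sirt6-/-* cells and at most 19.6 on any other array, and the cardiac actin gene *Actc1* read 376 to 464 against at most 6.94. *Des*, for desmin, read 923 to 1198 in *Sirt6-/-*, 413 to 564 in double-knockout and 54.2 to 119 in wild-type cells. Sums over the 15 markers ran from 9482 to 11335, 6731 to 8530 and 2786 to 4126 in the same order. The brightest of them, the actin gene *Acta1*, was high in both knockouts, at 6215 to 7569, 6053 to 7828 and 2607 to 3879. The muscle regulator gene *Myog* was lower in signal, at 28.5 to 50.1, 31.7 to 43.9 and 8.56 to 25.5 in the same order, and the regulators *Myf6*, *Myf5* and *Myod1*, with *Ckm* and *Mymk*, were below 16 on all 12 arrays. Of 7 macrophage markers 4 reached 100, 3 of these in wild-type cells only, and the other 3 were under 16 on all 12 arrays. The sums of the 7 were 201 to 509 in *Sirt6-/-* cells and 333 to 524 in double-knockout cells, against 966 to 2054 for wild-type. *Lyz2* alone read 134 to 373, 189 to 283 and 637 to 1513 in the same order. Of 6 endothelial markers only *Emcn* reached 100, with sums of 133 to 170 in *Sirt6-/-* cells, 35.7 to 66.2 in double-knockout cells and 32.1 to 49.3 for wild-type, and none of 6 adipocyte markers did. These markers moved with the genotype differences given here, and their part in them was not tested. In such cultures, fewer cells of a type and less RNA per cell cannot be told apart.

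HIF is a dimer of an α subunit, such as the product of *Hif1a*, and the constant β subunit ARNT. In the presence of oxygen, prolyl hydroxylases of the EGLN family mark the α subunit for binding by VHL and for destruction, so HIF is set mainly at the level of protein, which these arrays do not measure. When oxygen falls, the dimer binds short elements with the core ACGTG or GCGTG and raises genes for blood vessel growth, collagen maturation, acid and redox balance, and glycolysis. *EGLN3* is itself a HIF target and so part of a feedback loop. NF-κB is known to act on transcription of *Hif1a*, and SIRT6 is known as a corepressor of HIF at glycolytic genes.

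Promoter sequences from RefSeq (GRCm38.p6), running from 250 bases before to 50 bases after an annotated start, were matched for 7 of the 8 genes by symbol, with 2 starts for *Vegfa*. *Ndrg1* was not matched. Promoters are shown for *Hif1a* and for 3 targets that differed between *Sirt6-/-* and wild-type cells, 2 of them in the same direction (*P4ha1* and *Egln3*) and 1 in the other (*Vegfa*). Capitals mark every ACGTG or GCGTG on either strand, so that a match on the lower strand reads CACGT or CACGC. The *Vegfa* promoter is the one at its upstream start.
Hif1a, chr12:73907617-73907916, plus strand: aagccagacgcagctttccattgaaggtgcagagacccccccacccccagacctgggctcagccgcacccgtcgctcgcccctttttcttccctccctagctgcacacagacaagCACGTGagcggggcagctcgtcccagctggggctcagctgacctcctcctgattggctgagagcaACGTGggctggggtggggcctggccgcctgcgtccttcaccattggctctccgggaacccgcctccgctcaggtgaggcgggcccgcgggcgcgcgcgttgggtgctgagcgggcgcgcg
P4ha1, chr10:59323046-59323345, plus strand: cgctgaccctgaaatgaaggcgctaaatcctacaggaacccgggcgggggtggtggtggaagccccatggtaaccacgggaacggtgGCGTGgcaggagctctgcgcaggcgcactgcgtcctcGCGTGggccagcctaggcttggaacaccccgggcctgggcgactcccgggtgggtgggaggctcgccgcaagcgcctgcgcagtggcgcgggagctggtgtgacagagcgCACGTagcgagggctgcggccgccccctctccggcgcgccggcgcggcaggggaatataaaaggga
Egln3, chr12:54203825-54204124, minus strand: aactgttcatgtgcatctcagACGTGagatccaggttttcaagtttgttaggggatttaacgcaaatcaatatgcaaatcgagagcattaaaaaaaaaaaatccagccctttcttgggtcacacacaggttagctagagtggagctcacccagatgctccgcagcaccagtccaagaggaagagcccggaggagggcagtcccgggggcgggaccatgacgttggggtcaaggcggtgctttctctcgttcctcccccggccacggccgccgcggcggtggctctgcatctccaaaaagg
Vegfa, chr17:46032328-46032627, minus strand: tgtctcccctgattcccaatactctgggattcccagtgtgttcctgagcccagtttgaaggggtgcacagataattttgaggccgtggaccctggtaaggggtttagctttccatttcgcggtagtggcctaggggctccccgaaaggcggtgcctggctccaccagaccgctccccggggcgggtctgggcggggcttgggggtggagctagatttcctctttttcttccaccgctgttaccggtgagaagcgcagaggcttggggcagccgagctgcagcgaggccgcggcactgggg
*P4ha1* held 3 of these cores and *Egln3* held 1. *Hif1a* held 3, of which 2 are the same palindrome read on both strands, and the upstream *Vegfa* promoter held none. The sequence at the downstream annotated start of *Vegfa* held 2, but it lies within the gene (chr17:46025114-46025413), so it is not set against the upstream one. Among the others, *P4ha2* held 4, *Adm* 2 and *Pdk4* 1. At least 1 core was present in 43.8% of all 32851 promoters of the same length, and 3 or more in 8.93%. A match is a description of the sequence and not of binding.

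Intensities are linear, with the background already subtracted. For tests they were raised to a floor of 16 and put on the log2 scale. None of the 8 genes was under 16 on any array. Genotypes were compared with limma over the 4 times with time as a term, so the error of a difference is how unsteady it was over the times (6 residual degrees of freedom, with the spread moderated across genes). A gene was called at an adjusted p under 0.05 over all 6093 genes.

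**Figure D1:**
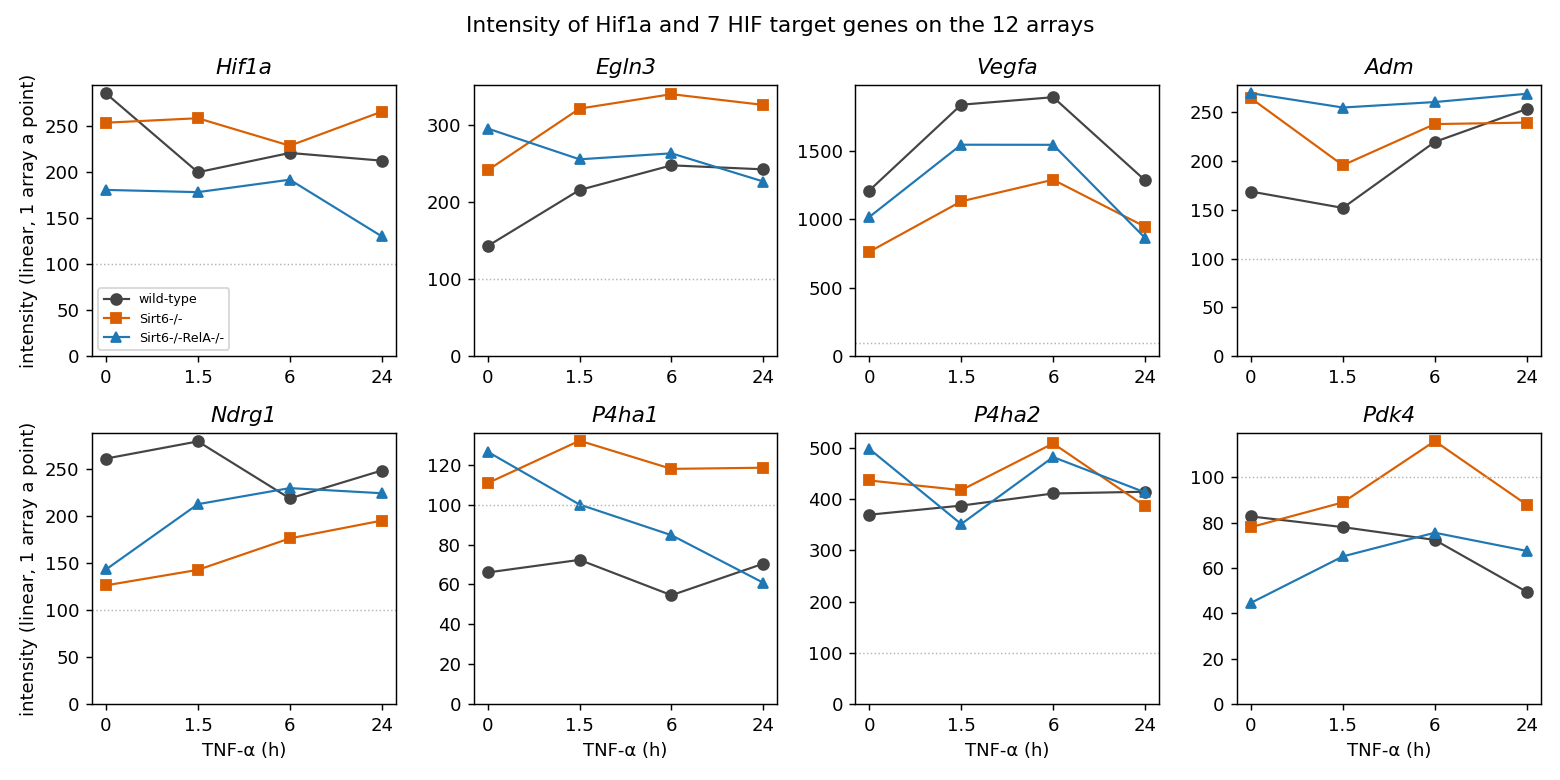
Intensity (linear scale) against time of TNF-α (h, spaced evenly) for each of the 8 genes, with 1 point for each array and a line for each genotype. The dotted line marks an intensity of 100. *P4ha1* and *Egln3* are highest in *Sirt6-/-* cells at 1.5, 6 and 24 h, and *Vegfa* is highest in wild-type cells at all 4 times.

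*Hif1a* did not differ detectably between *Sirt6-/-* and wild-type cells and was lower where RelA was also absent. In wild-type cells its intensity was 285 untreated and 200, 221 and 212 at 1.5, 6 and 24 h of TNF-α. In *Sirt6-/-* cells it was 253, 258, 228 and 265, and in double-knockout cells 180, 178, 192 and 130. All 4 double-knockout arrays lay below every array of the other genotypes, whereas the wild-type and *Sirt6-/-* ranges overlapped. The log2 difference of double-knockout from *Sirt6-/-* cells was -0.58 (standard error 0.13, adjusted p = 0.00495), a level 1.49-fold lower, and from wild-type cells -0.43 (standard error 0.13, adjusted p = 0.0337). Between *Sirt6-/-* and wild-type cells it was 0.14 (95% interval -0.14 to 0.43, adjusted p = 0.402). Single-time differences of double-knockout from *Sirt6-/-* cells ran from -1.03 at 24 h to -0.25 at 6 h. The call against *Sirt6-/-* cells was lost only without the filter on low intensities (adjusted p = 0.0615). That against wild-type cells was lost without any 1 of 6 arrays (wild-type at 0, 6 or 24 h, double-knockout at 0, 1.5 or 24 h), with values of -0.49 to -0.31, and without any 1 time.

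Of 10 other listed genes of oxygen sensing on the array (subunits, hydroxylases and cofactors), 5 were tested. In each of the 3 genotype comparisons 1 of the 5 was called, beside 42.2% of all genes for *Sirt6-/-* against wild-type, 31.1% for double-knockout against *Sirt6-/-* and 20.6% for double-knockout against wild-type cells. In this list the hydroxylase gene *Egln1*, the second α subunit gene *Epas1* and the asparaginyl hydroxylase gene *Hif1an* were among those under 100 on every array. *Cited2*, an inhibitor that competes with HIF for the coactivators p300 and CBP, was higher than in wild-type cells both in *Sirt6-/-* cells (log2 difference 0.50, standard error 0.17, adjusted p = 0.029) and in double-knockout cells (0.68, adjusted p = 0.0139). *Vhl*, the recognition subunit of the ligase that removes the α subunit, was lower in double-knockout than in *Sirt6-/-* cells (-0.40, adjusted p = 0.0294). No other tested gene of this list was called in any genotype comparison.

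*Egln3*, the hydroxylase in the HIF feedback loop, was above wild-type in *Sirt6-/-* cells. In wild-type cells it was 143 untreated and 215, 247 and 242 at 1.5, 6 and 24 h. In *Sirt6-/-* cells it was 241, 321, 340 and 326, and in double-knockout cells 295, 255, 263 and 226. The *Sirt6-/-* level was above the wild-type level at each of the 4 times, although the untreated *Sirt6-/-* array lay below the wild-type arrays at 6 and 24 h. The log2 difference was 0.55 (standard error 0.15, adjusted p = 0.0106), or 1.47-fold. It was not called without the filter (adjusted p = 0.111) or without the 1.5 h arrays (0.0574). Double-knockout cells differed from *Sirt6-/-* cells by -0.23 (95% interval -0.56 to 0.10) and from wild-type cells by 0.32 (-0.01 to 0.65), neither called. Without the untreated double-knockout array the first of these passed (-0.44, adjusted p = 0.0103). A dimmer second probe stayed under 22 on all arrays and gives no level, and averaging it in lowered the difference to 0.22 (adjusted p = 0.0634).

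*Vegfa*, the main secreted factor for growth of blood vessels, was lower in both knockouts than in wild-type cells. It was 1211, 1838, 1893 and 1285 in wild-type cells at 0, 1.5, 6 and 24 h. The *Sirt6-/-* values were 763, 1131, 1290 and 946, and those of double-knockout cells were 1017, 1545, 1545 and 864. In all 3 genotypes the arrays at 1.5 and 6 h stood above those at 0 and 24 h, and at each time the wild-type value was above both others. *Sirt6-/-* cells differed from wild-type by -0.59 (standard error 0.11, adjusted p = 0.000736), a level 1.51-fold lower, with single times from -0.70 to -0.44. Double-knockout cells differed from wild-type by -0.34 (standard error 0.11, adjusted p = 0.0397), a call lost without any 1 of 9 arrays (all but wild-type at 0 h, *Sirt6-/-* at 24 h and double-knockout at 0 h), with values of -0.39 to -0.24. They differed from *Sirt6-/-* cells by 0.25 (95% interval 0.02 to 0.48, adjusted p = 0.0973), which passed without the 24 h array of the double knockout (0.35, adjusted p = 0.0336) or of *Sirt6-/-* (0.34, adjusted p = 0.0398). A dimmer *Vegfa* probe ran parallel to the main one (r = 0.87 over the 12 arrays) with -0.87, 0.50 and -0.37 for *Sirt6-/-* against wild-type, double-knockout against *Sirt6-/-* and double-knockout against wild-type cells, and there the second of these passed (adjusted p = 0.00225). Another *Vegfa* probe was under 16 on all arrays and gives no level. Of the 9 listed relatives and receptors, 5 were tested. *Vegfd* ran from 37.1 to 108 in wild-type, from 13.7 to 25.4 in *Sirt6-/-* and from 38.4 to 56.7 in double-knockout cells. It reached 100 in wild-type cells only, and *Sirt6-/-* values went below the floor, so no size is given for its differences. *Vegfc*, a factor for lymphatic vessels, was lower in double-knockout than in *Sirt6-/-* cells (-0.68, adjusted p = 0.00413), and the receptor gene *Flt1* was higher there (0.43, adjusted p = 0.00642).

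*Adm* encodes adrenomedullin, a peptide that widens blood vessels. Its intensity was 169, 152, 220 and 253 in wild-type cells, 265, 196, 238 and 239 in *Sirt6-/-* cells, and 270, 255, 261 and 269 in double-knockout cells. The double-knockout arrays all lay above the wild-type arrays and hardly moved under TNF-α, whereas the wild-type values spanned 0.74 on the log2 scale. The difference of double-knockout from wild-type cells was 0.44 (standard error 0.13, adjusted p = 0.0279), largest at 1.5 h (0.75) and smallest at 24 h (0.09). It was not called after centring arrays on their median (0.38, adjusted p = 0.0551) or without any 1 of 5 arrays (wild-type at 0 or 1.5 h, double-knockout at 0, 1.5 or 6 h), with values of 0.33 to 0.48. Against wild-type, *Sirt6-/-* cells gave 0.26 (95% interval -0.01 to 0.54), which passed without the wild-type array at 24 h (0.38, adjusted p = 0.0312). Of 5 genes of the adrenomedullin receptor and its second ligand only *Ramp1* was tested. *Ramp1*, which sets the ligand preference of that receptor, read 68.3 to 106 in *Sirt6-/-* cells, 32.4 to 68.01 in double-knockout cells and 40.5 to 68.04 for wild-type. It entered the test only through *Sirt6-/-* cells, where it was high, and is given as a description.

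*Ndrg1* encodes a stress-responsive protein. Its level was 261, 279, 218 and 248 in wild-type cells, 126, 143, 176 and 195 in *Sirt6-/-* cells, and 143, 212, 229 and 224 in double-knockout cells. All 4 *Sirt6-/-* arrays lay below all 4 wild-type arrays, and the gap narrowed from -1.05 at 0 h to -0.35 at 24 h. Over the times it was -0.67 (standard error 0.14, adjusted p = 0.00242), or 1.59-fold lower. Double-knockout cells were between the other genotypes, 0.33 above *Sirt6-/-* cells (adjusted p = 0.0974) and -0.33 against wild-type (adjusted p = 0.12). The first of these passed without the untreated array of the double knockout (0.45, adjusted p = 0.0363) or of wild-type (0.33, adjusted p = 0.0319). A dimmer probe (r = 0.92 with the main one) gave -0.62 for *Sirt6-/-* against wild-type, and 0.35 for double-knockout against *Sirt6-/-* cells, which passed there (adjusted p = 0.0448). Its relative *Ndrg4*, the tested one of 3, was not called in any genotype comparison.

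*P4ha1* and *P4ha2* encode the catalytic subunits of collagen prolyl 4-hydroxylase, which stabilizes the collagen triple helix, and they did not move alike. *P4ha1* was 66.0, 72.3, 54.6 and 70.4 in wild-type cells, 111, 132, 118 and 118 in *Sirt6-/-* cells, and 126, 100, 84.7 and 60.8 in double-knockout cells. The *Sirt6-/-* arrays all lay above the wild-type ones, and the double-knockout series began near the *Sirt6-/-* level and ended at the wild-type level. *Sirt6-/-* exceeded wild-type cells by 0.87 (standard error 0.16, adjusted p = 0.000881), or 1.83-fold, the largest difference among the 8 genes in this comparison, and by 0.75 to 1.11 at single times. Because wild-type values were all under 100, *P4ha1* passed the filter only through the knockouts, and at a minimum of 200 it was not tested. Double-knockout cells gave 0.46 against wild-type (95% interval 0.11 to 0.81, adjusted p = 0.0626) and -0.41 against *Sirt6-/-* cells (-0.76 to -0.06, adjusted p = 0.0712). The former passed without the 24 h array of the double knockout (0.66, adjusted p = 0.00776) or of wild-type (0.59, adjusted p = 0.0274), and the latter without the untreated array of the double knockout (-0.59, adjusted p = 0.00832) or of *Sirt6-/-* (-0.53, adjusted p = 0.0419).

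*P4ha2* was 370, 388, 411 and 415 in wild-type cells, 437, 418, 509 and 387 in *Sirt6-/-* cells, and 498, 352, 482 and 413 in double-knockout cells, with overlapping ranges. Its differences were 0.14 (95% interval -0.10 to 0.38), -0.01 (-0.25 to 0.23) and 0.13 (-0.11 to 0.37) for *Sirt6-/-* against wild-type, double-knockout against *Sirt6-/-* and double-knockout against wild-type cells. Of 10 other genes for collagen hydroxylation and folding, 8 were tested. *Plod2* and *Plod3*, lysyl hydroxylase genes, were above wild-type in *Sirt6-/-* cells by 0.79 and 0.43 (adjusted p = 0.00678 and 0.00704), and *Plod3* also in double-knockout cells by 0.53 (adjusted p = 0.00495), and the other 6 were not called. Among 6 tested fibrillar collagen genes 3 were called below wild-type and 1 above it in *Sirt6-/-* cells, beside 17.1% and 25.1% of all genes. Of the 5 that reached 100 in both genotypes, a count added after seeing the data, 2 were lower and 1 higher. *Col1a2* gave -1.32 and *Col5a2* 0.96. *Col5a3* read 6.90 to 26.3 in *Sirt6-/-* cells, partly below the floor, against 73.2 to 103 for wild-type, and reached 100 in wild-type cells only.

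*Pdk4* encodes a kinase that switches off pyruvate dehydrogenase, and it is known as a target of PPAR and FOXO factors as well. Its signal was low. It was 82.8, 78.04, 72.4 and 49.5 in wild-type cells, 78.03, 88.9, 116 and 87.9 in *Sirt6-/-* cells, and 44.7, 65.1, 75.6 and 67.6 in double-knockout cells. All double-knockout arrays lay below all *Sirt6-/-* arrays, and the difference was -0.56 (standard error 0.17, adjusted p = 0.0222). *Pdk4* entered the test through the *Sirt6-/-* array at 6 h alone. This call was lost without that array (-0.51, adjusted p = 0.0782), without the *Sirt6-/-* array at 24 h, and without the double-knockout array at 0 or 1.5 h, with values of -0.57 to -0.40. *Sirt6-/-* against wild-type cells gave 0.40 (95% interval 0.04 to 0.77, adjusted p = 0.0706), which passed without the untreated array of wild-type (0.61, adjusted p = 0.0029) or of the double knockout (0.40, adjusted p = 0.0365). Of the 6 tested genes of pyruvate dehydrogenase and its regulators, *Pdp2*, a phosphatase that opposes the kinases, was higher in double-knockout than in *Sirt6-/-* cells (0.57, adjusted p = 0.00457), as was the kinase gene *Pdk3* (0.29, adjusted p = 0.0358). *Pdhb*, an enzyme subunit, was above wild-type in *Sirt6-/-* cells (0.31, adjusted p = 0.0284). Of 6 tested targets of PPAR and FOXO, 2 were above wild-type in *Sirt6-/-* cells and 0 below, beside 25.1% and 17.1% of all genes. They were *Angptl4*, an inhibitor of lipoprotein lipase that is also a HIF target (0.93, adjusted p = 0.000729), and *Acadm* (0.35, adjusted p = 0.016). In double-knockout against *Sirt6-/-* cells *Angptl4* was lower (-1.24, adjusted p = 0.000122) and *Irs2* higher (0.54, adjusted p = 0.0222). *Irs2* was also higher in double-knockout than in wild-type cells (0.76, adjusted p = 0.00611).

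**Figure D2:**
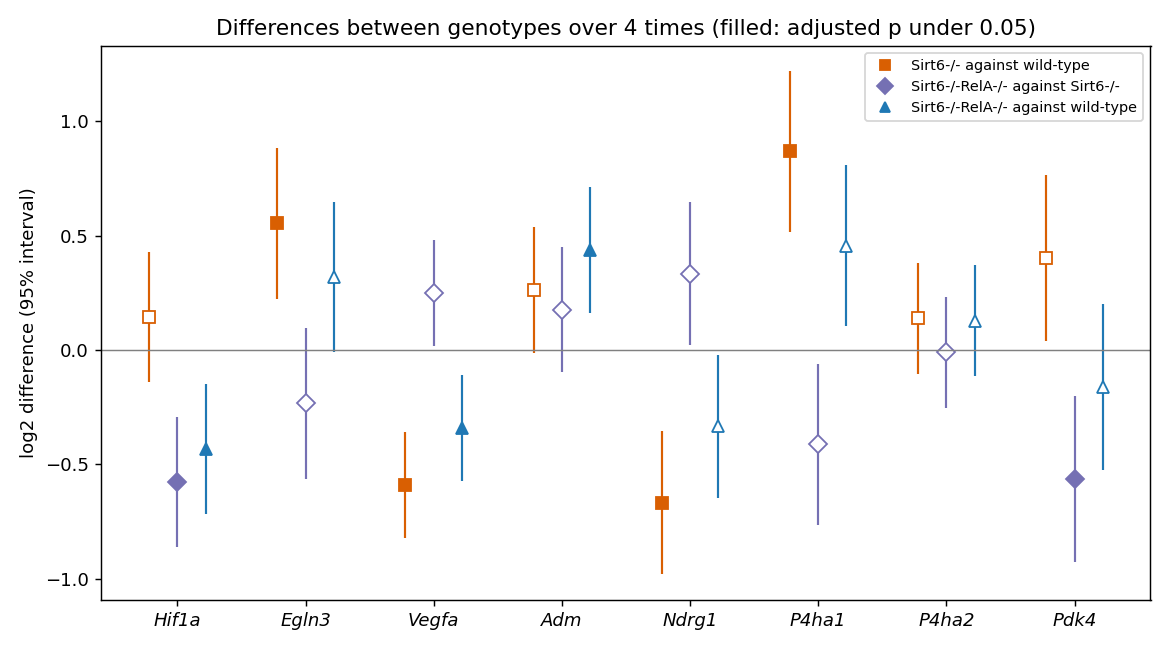
Log2 difference between genotypes for each of the 8 genes, fitted over the 4 times, with 95% intervals as bars. Filled symbols mark an adjusted p under 0.05, and the filled squares are *Egln3* (0.55) and *P4ha1* (0.87) above 0 and *Vegfa* (-0.59) and *Ndrg1* (-0.67) below it.

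Counted together, the 8 genes showed no common direction. Between *Sirt6-/-* and wild-type cells 2 were higher and 2 lower of 8, in a comparison in which 42.2% of all 6093 genes were called, 25.1% higher and 17.1% lower. The median difference was 0.20 over the 8 genes and 0.06 over all tested genes. Between double-knockout and *Sirt6-/-* cells 2 were lower and 0 higher, where 31.1% of all genes were called (15% lower, 16.1% higher), and between double-knockout and wild-type cells 2 were lower and 1 higher, where 20.6% were (5.32% lower, 15.3% higher). Counts among genes that reached 100 in both genotypes compared, which leave out *P4ha1* or *Pdk4* where they passed the filter through 1 side, were added after seeing the data. In the same order of comparisons they were 1 higher and 2 lower of 6, 0 higher and 1 lower of 7, and 1 higher and 2 lower of 6. With 8 genes these counts are not read as standing apart from all genes, and the 3 comparisons share arrays. Without the filter on low intensities, when 16593 genes entered, the calls of *Vegfa*, *Ndrg1* and *P4ha1* between *Sirt6-/-* and wild-type cells were kept and the others lost. On only the 8 arrays compared, those between double-knockout and wild-type cells were lost. Ranges of the 4 arrays did not overlap for 2 of the 8 genes in each comparison, against 34.9%, 33.4% and 20.7% of all genes.

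Other listed HIF targets were counted in the same way. Of 32 other non-glycolytic targets on the array 22 were tested, and in *Sirt6-/-* against wild-type cells 11 were higher and 4 lower, beside 25.1% and 17.1% of all genes, with a median of 0.28 beside 0.06. Among the 19 that reached 100 in both of these genotypes, a count added after seeing the data, 9 were higher and 3 lower. *Igfbp3*, which encodes a binding protein for insulin-like growth factors, ran from 43.7 to 68.8 in wild-type cells, from 127 to 382 in *Sirt6-/-* cells and from 49.1 to 75.6 in double-knockout cells. It entered the test only through *Sirt6-/-* cells, where it was high, so its test is not given. *Stc2*, the gene of the secreted glycoprotein stanniocalcin, ran from 124 to 159 in wild-type, from 53.0 to 64.3 in *Sirt6-/-* and from 116 to 127 in double-knockout cells. It stayed under 100 in *Sirt6-/-* cells and entered the test through the genotypes where it was high, so its tests are not given either. *Ccng2*, a cyclin gene tied to growth arrest, was above wild-type in *Sirt6-/-* cells by 0.63 and higher again in double-knockout cells by 0.62. In double-knockout against *Sirt6-/-* cells 4 of the 22 were higher and 5 lower, beside 16.1% and 15% of all genes. Against wild-type cells 2 were higher and none lower, beside 15.3% and 5.32%. Among those that reached 100 in both genotypes compared, 3 were higher and 3 lower of 19 in the first, and 2 higher and 0 lower of 20 in the second. Of 13 tested glycolytic targets, 1 was higher and 4 below wild-type in *Sirt6-/-* cells, beside 25.1% and 17.1% of all genes. The glucose transporter gene *Slc2a3* was the one higher (1.07, adjusted p = 1.83e-06), and *Pkm*, for pyruvate kinase, gave -0.86 there and 0.90 in double-knockout against *Sirt6-/-* cells. *Pfkp*, a phosphofructokinase gene, was higher in double-knockout than in wild-type cells (0.58, adjusted p = 0.0048). The enolase entry of this list was matched to *Eno1b* through a synonym.

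**Figure D3:**
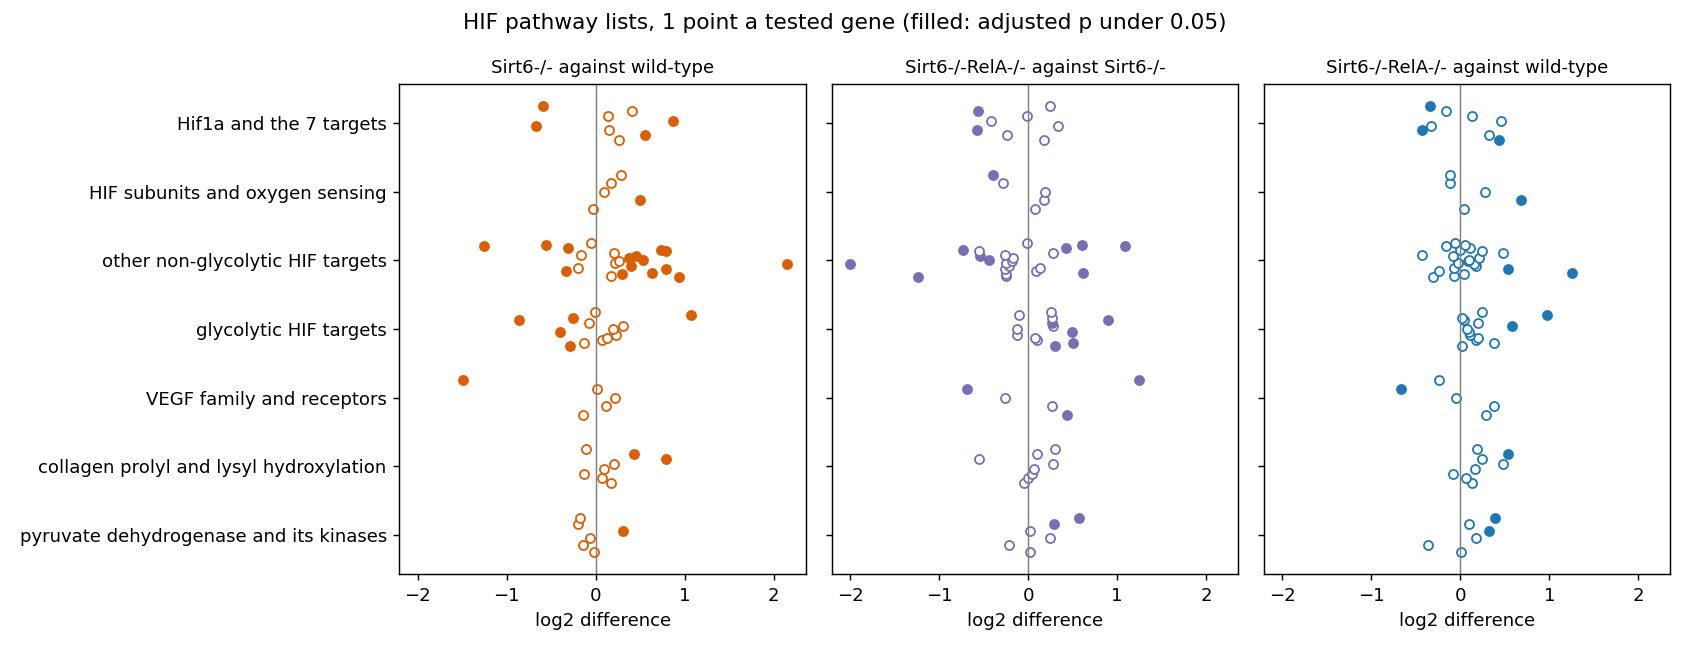
Log2 difference (x axis, the same scale in all 3 panels) for each tested gene of 7 lists (rows, spread vertically for legibility), filled where the adjusted p was under 0.05. In each panel the 8 genes fall on both sides of 0, and in *Sirt6-/-* against wild-type cells 11 filled points of the other non-glycolytic targets lie above 0 and 4 below. The point of *Vegfd*, leftmost in its row of that panel, rests on values at the floor.

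The response to TNF-α was fitted first over the cells that carry RelA (wild-type and *Sirt6-/-*), with times of their own for double-knockout cells (3 residual degrees of freedom). The 7 measured genes of NF-κB feedback and chemokines, such as *Nfkbia*, all passed the test upward at each time, with a median of 2.50 at 1.5 h. None of the 8 genes was called at 1.5, 6 or 24 h by limma, where 0.87%, 1.23% and 1.82% of all genes were. At an unadjusted p under 0.05 there were 2, 2 and 1 of them. *Vegfa* gave 0.59, 0.70 and 0.20 (adjusted p = 0.217, 0.0723 and 0.667), and *Egln3* gave 0.50, 0.64 and 0.60 (adjusted p = 0.34, 0.116 and 0.122), each with a standard error of 0.16. Both were above their untreated level on all 6 treated arrays of these genotypes. *Egln3* passed at 6 h (0.78, adjusted p = 0.0365) and 24 h (0.73, adjusted p = 0.0402) without the untreated *Sirt6-/-* array, and *Vegfa* passed at 6 h when all 3 genotypes shared 1 set of time terms (0.67, adjusted p = 0.0212). The remaining 6 genes lay between -0.29 and 0.28 at every time.

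Time courses in single genotypes are differences of single arrays. *Vegfa* in double-knockout cells was 0.60 above its untreated array at 1.5 h and 0.60 at 6 h, against 0.60 and 0.64 in wild-type and 0.57 and 0.76 in *Sirt6-/-* cells. At 24 h it was -0.24, 0.09 and 0.31 in the same order of genotypes. The response of *Vegfa* in double-knockout minus that in RelA-bearing cells was 0.02 at 1.5 h (95% interval -0.59 to 0.62) and -0.10 at 6 h (-0.70 to 0.51). *Egln3* was 0.59, 0.79 and 0.76 above its untreated level in wild-type cells and 0.41, 0.50 and 0.43 in *Sirt6-/-* cells, but -0.21, -0.17 and -0.38 in double-knockout cells. Treated arrays were all above the untreated one for 44.5% of genes in wild-type cells and 28.7% in *Sirt6-/-* cells, and all below it for 28.9% in double-knockout cells. The difference of double-knockout from RelA-bearing cells was called for none of the 8 genes by limma, where 0.0656%, 0.0985% and 0.164% of all genes were at 1.5, 6 and 24 h. At an unadjusted p under 0.05 there were 1, 1 and 3.

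**Figure D4:**
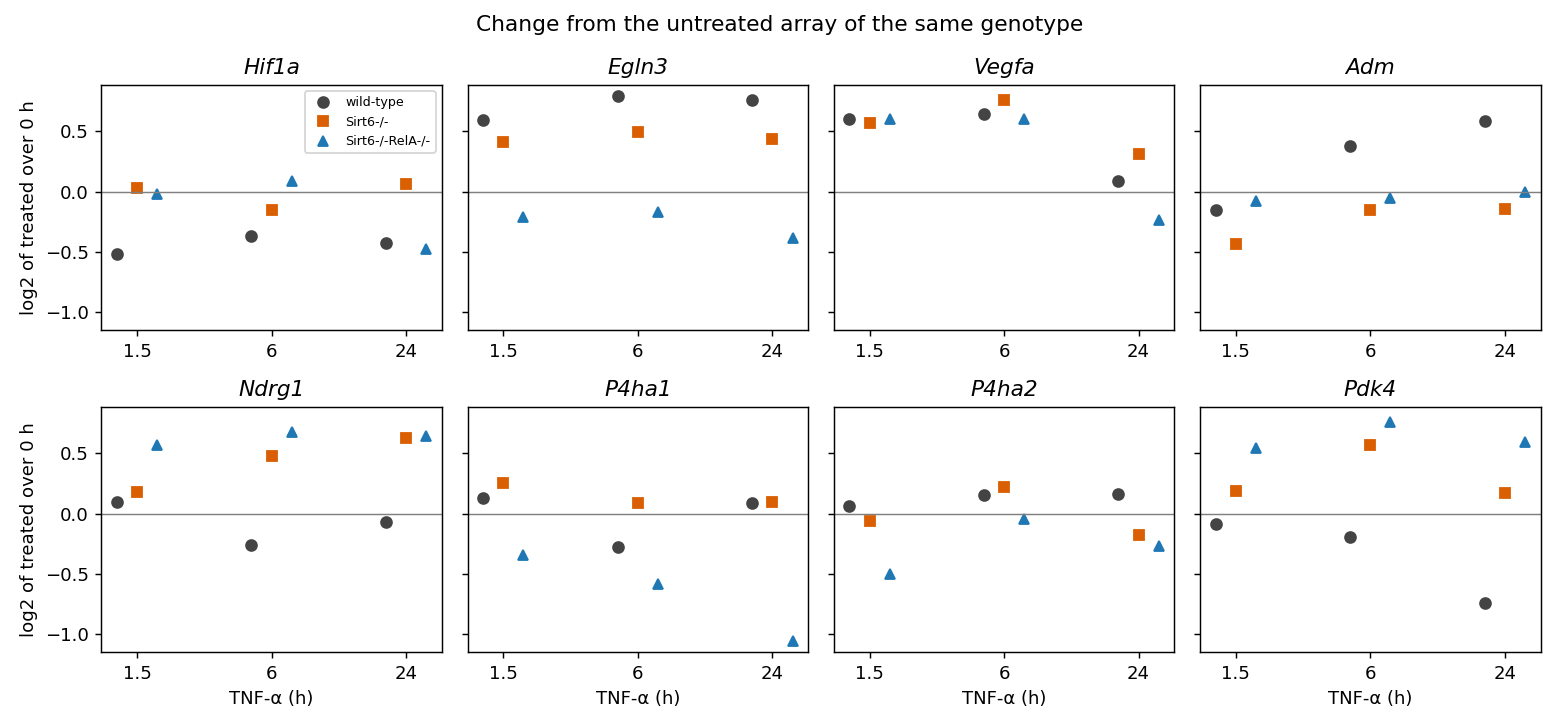
Log2 of each treated array over the untreated array of the same genotype (y axis) at 1.5, 6 and 24 h (x axis), 1 point for each array. *Egln3* lies above 0 in wild-type and *Sirt6-/-* cells and below 0 in double-knockout cells, and *Vegfa* lies near 0.6 at 1.5 h in all 3.

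A fit with 1 treated term for each genotype (4 residual degrees of freedom), chosen after these values had been seen, gave the response averaged over the 3 treated times. *Egln3* rose by 0.72 in wild-type cells (standard error 0.14, adjusted p = 0.00834, where 20.7% of all genes were called). It gave 0.45 in *Sirt6-/-* cells (adjusted p = 0.346, where 0.821% were called) and -0.25 in double-knockout cells (adjusted p = 0.802, where 0% were). With so few calls in the knockouts, a missing call there does not set *Egln3* apart. At an unadjusted p under 0.05 in limma there were 3 of the 8 genes in each genotype. *Egln3* was among them in wild-type and *Sirt6-/-* cells. Its response in double-knockout cells minus that in wild-type cells was -0.97 (standard error 0.20, adjusted p = 0.0237, where 7.27% of all genes were called), and it was the only one of the 8 genes called in this comparison. This call was lost without the wild-type or the double-knockout array at 6 or 24 h (adjusted p from 0.0515 to 0.0586), and both values rest on 1 untreated array for each genotype. The untreated wild-type array had a mean r across genes of 0.967 with the other arrays of its genotype, against 0.982 to 0.991 for the other 11 arrays, and its part in the difference was not tested.

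None of the other 7 genes was called for a response averaged over the times or for its difference between genotypes, although some values were as large as those of *Egln3*. Of all genes, 0.0821% were called for *Sirt6-/-* minus wild-type and 0.164% for double-knockout minus *Sirt6-/-* cells. *Pdk4* gave 0.97 for double-knockout minus wild-type cells (adjusted p = 0.0525). *P4ha1* in double-knockout cells was -0.34, -0.58 and -1.06 against its untreated array at 1.5, 6 and 24 h, whereas in *Sirt6-/-* cells it was 0.25, 0.09 and 0.10. The difference of double-knockout from RelA-bearing cells was -1.15 at 24 h (95% interval -1.78 to -0.52, adjusted p = 0.326). *Ndrg1* was above its untreated level on all 3 treated arrays in *Sirt6-/-* cells (0.18, 0.48 and 0.63) and in double-knockout cells (0.57, 0.68 and 0.65), and gave 0.10, -0.26 and -0.07 in wild-type cells. *Hif1a* gave -0.51, -0.37 and -0.43 in wild-type cells and stayed within 0.15 of its untreated level in *Sirt6-/-* cells. *Pdk4* gave -0.08, -0.19 and -0.74 in wild-type cells, 0.19, 0.57 and 0.17 in *Sirt6-/-* cells, and 0.54, 0.76 and 0.60 in double-knockout cells.

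Over the 12 arrays the 8 genes did not share a pattern. Pearson's r between log2 levels ran from -0.77 (*Ndrg1* and *P4ha1*) to 0.69 (*P4ha1* and *Egln3*), with 0.60 for *Vegfa* and *Ndrg1*. *Hif1a* had r of -0.04 with *Vegfa* and -0.04 with *Egln3*. Arrays of a genotype are not independent of each other, so these values describe the 12 arrays only. Among all tested genes outside the 8, the one most like *Hif1a* was *Epm2aip1* (r = 0.92), followed by *Mafk* and *Snap23*. The nearest to *Vegfa* were *Egr2* (r = 0.87), *Pdlim4* and *Errfi1*, and to *Egln3* they were *Gdpd5* (r = 0.93), *Csnk2a2* and *Tsr3*. *P4ha1* had the closest neighbours, *Rabac1* (r = 0.97), *Nbl1* and *Hibadh*, and *P4ha2* the most distant, *Snx11* (r = 0.81), *Foxk1* and *Nubp2*. For *Ndrg1* they were *Nop58* (r = 0.93), *Lsm8* and *Acin1*, for *Adm* *Ago2* (r = 0.87), *Irs2* and *Hsdl1*, and for *Pdk4* *Stx3* (r = 0.87), *Rhbdd1* and *St7l*.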

How the data were processed

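The authors deposited linear intensities from 12 Illumina bead arrays, from which the background had been taken off and which had been scaled to each other. The submitters' processing notes name GenomeStudio without a version. A table of non-normalized signals holds 12 columns whose names match no sample label, and these were left out. Of 25697 probes, 23978 carry 1 gene symbol, and 7461 to 7547 probes an array reached 100. The number of arrays limits the precision.

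Values under 16 were set to 16 (17.7% of values were negative) and log2 was taken. Genes whose brightest probe by mean reached 100, the detection value of the methods, on any array were tested with limma 3.58.1 in R 4.3.3, with Benjamini-Hochberg adjustment over 6093 genes. Genotypes were fitted with time as a term, and TNF-α with separate times for *Sirt6-/-RelA-/-* cells. The averaged response was a fit added after seeing the data. Fits were tested on simulated data. Alternatives covered the floor, an offset, centring, quantile normalization, the filter, the probe, the variance prior, the terms, and arrays or times left out. Promoters came from RefSeq (GRCm38.p6). Promoters and figures were handled in Python 3.11.15 with matplotlib 3.10.9.

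The 8 genes, the gene lists and the named genes were chosen with earlier results of these data known. Named genes are the 8, *Sirt6* and *Rela*, up to 3 called genes with the largest genotype difference in each list, and the 3 tested genes with the highest r to each of the 8. Named outside this rule, after their values were seen, are *Xist*, *Eif2s3y*, *Nfkbia*, *Acta1*, *Myog*, *Myod1*, *Myf5*, *Myf6*, *Ckm*, *Mymk*, *Egln1*, *Epas1*, *Hif1an*, *Ndrg4* and *Eno1b*.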

Additional observations from a re-analysis of the deposited data

Results flagged for a closer look

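Responses to TNF-α averaged over 1.5, 6 and 24 h were compared between genotypes for the 8 genes. The fit was chosen after the values had been seen and gave 24 differences. In 6 of them, all 3 treated arrays of one genotype lay above its untreated array and all 3 of the other lay below. Over all genes, treated arrays were all above the untreated one for 44.5%, 28.7% and 20.5% in wild-type, *Sirt6-/-* and *Sirt6-/-RelA-/-* cells. They were all below it for 29.9%, 15.2% and 28.9%. The share of all genes with opposite patterns in 2 genotypes was not counted. Of the 6, 1 passed the test of the difference, in limma with adjustment over all genes: *Egln3*, *Sirt6-/-RelA-/-* minus wild-type cells, at -0.97 (standard error 0.20, adjusted p = 0.0237, where 7.27% of all genes were called). This call was lost without the wild-type or the *Sirt6-/-RelA-/-* array at 6 or 24 h (-0.98 to -0.90, adjusted p from 0.0515 to 0.0586). The same gene gave -0.70 for *Sirt6-/-RelA-/-* minus *Sirt6-/-* cells (adjusted p = 0.645). *Pdk4* gave 0.97 for *Sirt6-/-RelA-/-* minus wild-type cells (adjusted p = 0.0525) and 0.65 for *Sirt6-/-* minus wild-type cells (adjusted p = 0.222). *P4ha1* gave -0.80 for *Sirt6-/-RelA-/-* minus *Sirt6-/-* cells (adjusted p = 0.908), and *P4ha2* gave -0.40 for *Sirt6-/-RelA-/-* minus wild-type cells (adjusted p = 0.263). Each rests on 1 untreated array for each genotype.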

How the results depend on the processing

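No paired analysis was possible because every array carries the replicate number 1, so the numbers pair no samples. The time term already matches the genotypes at each time. Each p of a genotype comparison sets a difference against how unsteady the differences among all 3 genotypes were over the 4 times. No p measures how a difference varies between embryos or cultures. Between *Sirt6-/-* and wild-type cells the count of 4 called genes stayed within 1.5 times under every alternative. For *Sirt6-/-RelA-/-* against *Sirt6-/-* cells the count of 2 was 1 with a minimum intensity of 200 and 0 without a filter, and ran from 1 to 5 as arrays or times were left out. For *Sirt6-/-RelA-/-* against wild-type cells the count of 3 was 0 without a filter and 0 on only the 8 arrays compared, and ran from 0 to 3 as arrays or times were left out. For TNF-α at 6 h in RelA-bearing cells the count of 0 was 1 (*Vegfa*) with an offset of 50, with a trend in the variance prior, and with 1 set of time terms for all genotypes. As arrays or times were left out it ran from 0 to 1 at 6 h and from 0 to 1 at 24 h, the 1 being *Egln3* without the untreated *Sirt6-/-* array. For *P4ha2*, the difference of *Sirt6-/-RelA-/-* from *Sirt6-/-* cells (-0.01) ran from -0.093 to 0.075 as arrays or times were left out, and that of *Pdk4* from wild-type cells (-0.16) from -0.36 to 0.083. Of 1615 values of single genes under alternatives, 38 changed sign, and 0 of these were called in either setting. Without a filter, 16593 genes entered, many of them at the floor on every array.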
